A study of Homo sapiens with 6 samples.

Results

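The genes described here are 54 human genes of interferon signalling and of the response that interferon induces, chosen by symbol from a list of receptors, kinases, transcription factors and induced antiviral genes. Of these, 53 were measured among 32692 genes, 41 had a mean of at least 1 RPKM over the 6 libraries and were tested, and 12 lay under that minimum and are given by their values. XAF1 was not analysed here. The cells were DU145, a cultured line from a human prostate cancer. They were exposed for 24 h to OTI-611 at 5 µM, a compound that the labels name by this code, or to DMSO, its vehicle. Each group held 3 libraries, numbered as in the labels, and no genetic change to the cells is stated. Nothing in the labels says that the replicates were separate cultures, so p-values measure the spread between these libraries only, which may be technical.

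Values are read as RPKM, read counts scaled by gene length and library depth, which allows levels of different genes to be compared. DMSO 1 was deposited as whole numbers, so its low values are too low and its genes under 1 RPKM are listed at 0. For 4574 genes at 1 to 5 RPKM, DMSO 1 minus the mean of the other DMSO libraries was -0.514 ± 0.0073 RPKM (SE). This difference was -0.526 ± 0.012 RPKM for 6720 genes at 5 to 50 RPKM. For 1042 genes at 50 to 200 RPKM it was larger, at -0.918 ± 0.098 RPKM, so DMSO 1 may differ by more than its decimals. What else differs was not tested. Estimated depth was 37300000 to 37800000 reads for the OTI-611 libraries and 30700000 and 32400000 reads for DMSO 2 and DMSO 3. The epithelial markers EPCAM, KRT8, KRT18 and CDH1 summed to 214.1 to 228.4 RPKM with OTI-611 and to 263.0 to 271.5 RPKM with DMSO. Measured markers of blood, stromal and endothelial cells summed to at most 0.225, 0.778 and 0.0486 RPKM per library, and the prostate secretory gene KLK3 reached at most 0.0595 RPKM. Most of the gap in the epithelial sum is KRT8, and the part of this gap in the results was not tested. CDH1 was lower as well, at 1.45 to 1.71 RPKM with OTI-611, against 4 to 4.80 RPKM with DMSO. The ranges of EPCAM and KRT18 overlapped between the groups. CHD1L, the remodeller that the series title names as the target, had 0.585, 0.792 and 0.546 RPKM with OTI-611, against 0, 0.662 and 0.691 RPKM with DMSO. The genes of the axis in that title, FOXO3 and BBC3 (which encodes PUMA), had log2 fold changes of 1.01 and 1.25. In such bulk samples, fewer cells expressing a gene and less RNA per cell cannot be told apart.

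As background, type I interferons bind the receptor chains IFNAR1 and IFNAR2, whose kinases JAK1 and TYK2 activate STAT factors. A complex that holds STAT2 and IRF9 binds interferon-stimulated response elements (ISRE) in promoters. Type II interferon acts through IFNGR1, IFNGR2, JAK1 and JAK2, and its signal ends at gamma-activated sites (GAS) in promoters. The induced proteins sense viral RNA, stop translation, block viral entry or attach the ubiquitin-like protein ISG15 to other proteins, and many carcinoma lines keep a basal level of them without added interferon.

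ISRE letters are what many of these genes have in common in sequence, so promoter stretches of named members are shown before their values. RefSeq promoter windows of 300 bases were given for 43 of the 54 genes. The ISRE core searched was GAAANNGAAA and the GAS core TTCNNNGAA, each on both strands, with overlapping matches counted. An ISRE core lay in a window of 25 of the 43 genes (58.1%), against 1195 of 27305 genes in all (4.38%). A GAS core lay in a window of 11 of the 43 (25.6%), against 9.38% of all genes. The stretches below are from GRCh38.p14, run 5′ to 3′ on the gene's strand, end before the start site and have the matched core in capitals. A core that begins with TTTC is the same element on the opposite strand.
PARP9 (chr3:122564312-122564361, minus strand): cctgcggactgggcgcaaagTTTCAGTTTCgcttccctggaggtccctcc
OAS3 (chr12:112938311-112938360, plus strand): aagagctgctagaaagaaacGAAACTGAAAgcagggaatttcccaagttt
IFI6 (chr1:27672319-27672368, minus strand): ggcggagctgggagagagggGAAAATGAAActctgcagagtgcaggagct
PARP14 (chr3:122680790-122680838, plus strand): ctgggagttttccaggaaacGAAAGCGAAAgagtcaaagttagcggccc
IFIT3 (chr10:89327821-89327870, plus strand): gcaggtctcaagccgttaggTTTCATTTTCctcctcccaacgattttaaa
IFIT5 (chr10:89414503-89414567, plus strand): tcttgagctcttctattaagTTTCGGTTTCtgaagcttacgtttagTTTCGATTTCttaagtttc
IFIT1 (chr10:89392487-89392549, plus strand): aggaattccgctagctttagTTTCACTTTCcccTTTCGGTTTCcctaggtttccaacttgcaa
ISG15 (chr1:1013364-1013419, plus strand): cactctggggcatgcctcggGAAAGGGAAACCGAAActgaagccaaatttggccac
HERC5 (chr4:88456974-88457029, plus strand): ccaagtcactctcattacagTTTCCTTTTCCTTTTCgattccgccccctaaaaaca
DDX60 (chr4:168318811-168318860, minus strand): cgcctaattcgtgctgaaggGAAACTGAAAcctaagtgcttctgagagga
IRF1, with its GAS core (chr5:132490869-132490917, minus strand): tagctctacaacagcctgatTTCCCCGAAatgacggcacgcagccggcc

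Of the 41 tested genes, 28 were lower and 8 higher with OTI-611 at an adjusted p under 0.05 in limma, and 5 did not pass. Lower calls were 68.3% of the tested members and 37.3% of all 11978 tested genes. Higher calls were 19.5% of the members and 27.8% of all tested genes. The median log2 fold change, on log2(RPKM + 1), was -0.36 for the members and -0.05 for all tested genes. In 28 members every OTI-611 library lay below every DMSO library and in 8 every OTI-611 library lay above, against 39.7% and 30.5% of all tested genes. A fall of at least 0.5 on the log2 scale was seen in 17 members (41.5%) and in 14.5% of all tested genes, and a rise of that size in 2 members (4.88%) and in 8.28% of all tested genes.

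**Figure D1:**
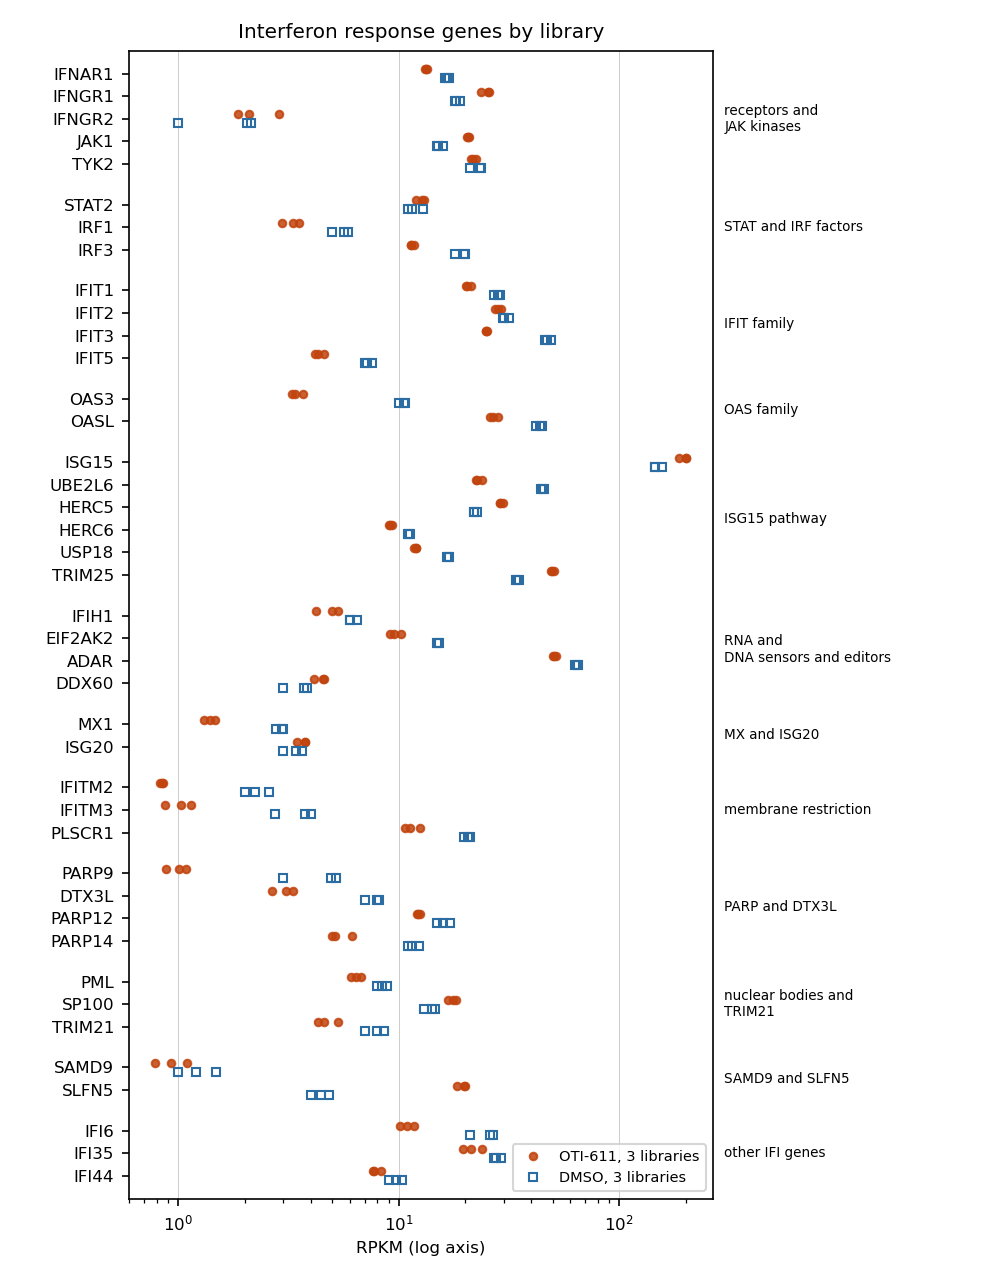
RPKM of each of the 41 tested genes in each library, on a log axis, grouped by role, with OTI-611 as filled circles just above DMSO as open squares. The OTI-611 points lie left of the DMSO points in 28 genes and right of them in 8, with SLFN5 farthest right of its DMSO points at 18.5 to 19.98 RPKM.

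At the receptor level, 1 chain of the type I receptor was lower and 1 chain of the type II receptor higher. IFNAR1, a type I receptor chain, had 13.2, 13.3 and 13.5 RPKM with OTI-611, against 17, 16.2 and 16.5 RPKM with DMSO, with no overlap (log2 fold change -0.29 ± 0.037 SE, limma adjusted p = 8.78e-05). IFNGR1, the ligand-binding chain of the type II receptor, had 25.7, 25.4 and 23.6 RPKM with OTI-611, against 18, 18.3 and 19.1 RPKM with DMSO. All of its OTI-611 libraries were higher (0.41 ± 0.042, adjusted p = 2.24e-05 in limma). JAK1, the kinase that serves both receptors, was also higher in every OTI-611 library, with 20.4, 20.9 and 20.6 RPKM, against 15, 15.8 and 15.02 RPKM with DMSO (0.41 ± 0.036, limma adjusted p = 8.81e-06).

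The partner chain IFNGR2 and the kinase TYK2 did not pass. IFNGR2 had 1.88, 2.09 and 2.87 RPKM with OTI-611, against 1, 2.13 and 2.05 RPKM with DMSO, and its groups overlapped (95% interval of the log2 fold change -0.14 to 0.71). Without DMSO 1 its log2 fold change was 0.07. TYK2 had 21.4, 22.4 and 21.7 RPKM with OTI-611, against 21, 23.4 and 23.5 RPKM with DMSO (interval -0.15 to 0.06). Without DMSO 1, TYK2 passed as lower at -0.10 with a limma adjusted p of 0.042. IFNAR2 lay under the minimum, at 0.406, 0.477 and 0.533 RPKM with OTI-611, against 0, 0.718 and 0.761 RPKM with DMSO. Exons of other genes cover 83.2% of its exon bases in GENCODE v29, and how shared reads were assigned is not stated, so its level is uncertain.

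Of the transcription factors, IRF3 and IRF1 were lower with OTI-611 and STAT2 did not pass. IRF3, which is activated by sensors of viral nucleic acid and switches on interferon beta, had 11.4, 11.4 and 11.8 RPKM with OTI-611, against 18, 19.9 and 19.8 RPKM with DMSO (-0.69 ± 0.046, limma adjusted p = 1.57e-06). IRF1, an interferon-induced factor whose GAS core is shown above, had 2.97, 3.31 and 3.54 RPKM with OTI-611, against 5, 5.64 and 5.92 RPKM with DMSO (-0.61 ± 0.081, adjusted p = 1.33e-04 in limma). In neither gene did the groups overlap. IRF3 shares 19.3% of its exon bases with BCL2L12 and IRF1 22% with C5orf56, both on the opposite strand, and no source used here says whether counting used strand. STAT2 had 13.1, 12.8 and 12.0 RPKM with OTI-611, against 11, 11.5 and 12.9 RPKM with DMSO, an overlap (interval -0.04 to 0.23). Without DMSO 3, STAT2 passed as higher at 0.15 with a limma adjusted p of 0.038.

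IRF7 and IRF9 lay under the minimum. IRF7, which amplifies type I interferon production, was at 0.496, 0.339 and 0.336 RPKM with OTI-611, against 0, 0.175 and 0.240 RPKM with DMSO. IRF9, the DNA-binding partner of STAT2, was near 0 throughout, at 0.0116, 0.0174 and 0.0058 RPKM with OTI-611 and 0, 0.0212 and 0.0134 RPKM with DMSO. These values correspond to an estimated 0.832 to 2.47 reads a library. Exons of AL136295.5 on the same strand, which reached at most 0.0117 RPKM, cover 48.4% of the exon bases of IRF9, so its level is uncertain.

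All 4 IFIT genes, which encode proteins that bind foreign RNA and limit its translation, were lower with OTI-611, by unequal amounts. IFIT3 had 24.9, 25.1 and 25.0 RPKM with OTI-611, against 46, 49.2 and 47.3 RPKM with DMSO (-0.90 ± 0.032, limma adjusted p = 4.51e-08). IFIT5 had 4.32, 4.60 and 4.19 RPKM with OTI-611, against 7, 7.17 and 7.56 RPKM with DMSO (-0.62 ± 0.058, limma adjusted p = 1.40e-05). IFIT1 averaged 20.6 ± 0.57 RPKM with OTI-611 and 28.0 ± 0.97 RPKM with DMSO (SD, n = 3 each; -0.43). In these 3 genes every OTI-611 library lay well below the lowest DMSO library. IFIT2 averaged 28.3 ± 0.88 RPKM with OTI-611 and 30.5 ± 1.0 RPKM with DMSO, a log2 fold change of -0.11 with a limma adjusted p of 0.030. That call was lost without DMSO 3 (adjusted p = 0.12), without OTI-611 1 (0.094) and without OTI-611 3 (0.065). The 4 genes lie near each other on chromosome 10, from 89283694 to 89421001 in GENCODE v29 on GRCh38, with 51.6 kb between IFIT3 and IFIT1.

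The oligoadenylate synthetases make the messenger that switches on RNase L. OAS3 had 3.39, 3.30 and 3.69 RPKM with OTI-611, against 10, 10.7 and 10.6 RPKM with DMSO, so that no OTI-611 library came near the DMSO range (-1.36 ± 0.058, limma adjusted p = 1.24e-07). OASL, a relative without synthetase activity, had 28.1, 26.0 and 26.7 RPKM with OTI-611, against 42, 44.7 and 43.8 RPKM with DMSO (-0.67 ± 0.038, limma adjusted p = 5.70e-07). OAS1 and OAS2, the neighbours of OAS3 on chromosome 12, lay under the minimum. OAS1 was at 0.0320 to 0.0567 RPKM with OTI-611, against 0.173 and 0.196 RPKM in DMSO 2 and DMSO 3. OAS2 was at 0.172 to 0.243 RPKM with OTI-611, against 0.580 and 0.868 RPKM in DMSO 2 and DMSO 3.

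The tested members that act in ISG15 conjugation split in direction. ISG15, the modifier itself and the most abundant member with 200.4, 186.7 and 201.5 RPKM with OTI-611, had 146, 145.6 and 156.7 RPKM with DMSO. It was higher in every OTI-611 library (0.39 ± 0.039, limma adjusted p = 1.97e-05). UBE2L6, the enzyme that carries ISG15 to its ligases, had 23.9, 22.4 and 22.6 RPKM with OTI-611, against 44, 45.8 and 45.4 RPKM with DMSO (-0.94 ± 0.035, limma adjusted p = 5.51e-08). USP18, the protease that removes ISG15 and also restrains the type I receptor, averaged 11.9 ± 0.13 RPKM with OTI-611 and 16.8 ± 0.24 RPKM with DMSO (SD, n = 3 each; -0.46). The modifier gene thus was higher while the genes of its carrier enzyme and its protease were lower.

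Among the ligases, TRIM25, which also modifies the sensor RIG-I, had 49.0, 50.4 and 49.8 RPKM with OTI-611, against 34, 34.5 and 35.2 RPKM with DMSO (0.51 ± 0.028, limma adjusted p = 4.86e-07). HERC5, the main human ISG15 ligase, averaged 29.1 ± 0.67 RPKM with OTI-611 and 22.2 ± 0.39 RPKM with DMSO (SD, n = 3 each; 0.37, limma adjusted p = 7.81e-06). Its neighbour HERC6, 14.0 kb away on chromosome 4, averaged 9.17 ± 0.11 RPKM with OTI-611 and 11.1 ± 0.11 RPKM with DMSO (-0.25, limma adjusted p = 4.07e-04). For both HERC genes the groups did not overlap, and the directions were opposite.

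Among sensors and editors of RNA, EIF2AK2, the kinase PKR that halts translation on double-stranded RNA, was lower. It had 10.3, 9.18 and 9.53 RPKM with OTI-611, against 15, 15.3 and 15.1 RPKM with DMSO (-0.60 ± 0.046, limma adjusted p = 4.06e-06). ADAR, which edits double-stranded RNA and is induced in one of its forms by interferon, averaged 50.8 ± 0.98 RPKM with OTI-611 and 64.2 ± 1.1 RPKM with DMSO (SD, n = 3 each; -0.33). IFIH1, which encodes the sensor MDA5, averaged 4.83 ± 0.57 RPKM with OTI-611 and 6.15 ± 0.26 RPKM with DMSO (-0.30, limma adjusted p = 0.0081). The helicase DDX60 averaged 4.41 ± 0.24 RPKM with OTI-611 and 3.52 ± 0.46 RPKM with DMSO (0.26, limma adjusted p = 0.025). Its call was lost without OTI-611 1 (adjusted p = 0.079) and without OTI-611 3 (0.076). IFI16, a DNA sensor under the minimum, was at 0.660, 0.718 and 0.557 RPKM with OTI-611, against 0, 0.299 and 0.469 RPKM with DMSO.

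MX1, a dynamin-like GTPase that traps viral capsids, had 1.47, 1.39 and 1.31 RPKM with OTI-611, against 3, 2.94 and 2.78 RPKM with DMSO (-0.71 ± 0.091, limma adjusted p = 1.08e-04). The exonuclease ISG20 averaged 3.67 ± 0.17 RPKM with OTI-611 and 3.36 ± 0.33 RPKM with DMSO and did not pass (interval -0.08 to 0.28). MX2 lay under the minimum, at 0 to 0.0527 RPKM with OTI-611, against 0.160 and 0.137 RPKM in DMSO 2 and DMSO 3.

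Of the genes whose proteins restrict viruses at membranes, the 3 tested, IFITM3, IFITM2 and PLSCR1, were lower with OTI-611. IFITM3, which blocks viral entry from endosomes, had 1.03, 0.871 and 1.14 RPKM with OTI-611, against 4, 3.78 and 2.75 RPKM with DMSO (-1.15 ± 0.13, limma adjusted p = 4.46e-05). IFITM2 had 0.826, 0.851 and 0.842 RPKM with OTI-611, against 2, 2.23 and 2.57 RPKM with DMSO (-0.83 ± 0.12, limma adjusted p = 1.95e-04). IFITM1 lay under the minimum, at 0.126 to 0.222 RPKM with OTI-611, against 0.540 and 1.02 RPKM in DMSO 2 and DMSO 3. In all 3 the OTI-611 values lay below those of DMSO 2 and DMSO 3, but the genes are close relatives and IFITM1 and IFITM2 share exon bases, so how reads were split between them is uncertain. PLSCR1, a membrane protein that potentiates the response, had 12.5, 11.3 and 10.7 RPKM with OTI-611, against 21, 20.7 and 19.8 RPKM with DMSO (-0.78 ± 0.055, limma adjusted p = 2.18e-06). BST2, which encodes tetherin, was listed at 0 in all 3 OTI-611 libraries and in DMSO 1, and at 0.0976 and 0.246 RPKM in DMSO 2 and DMSO 3.

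PARP9, PARP14 and DTX3L, whose products act in ADP-ribosylation and ubiquitin signalling, fell by about 1 or more on the log2 scale. PARP9 had 1.08, 0.877 and 1.01 RPKM with OTI-611, against 3, 5.20 and 4.92 RPKM with DMSO, the lowest log2 fold change of the tested members (-1.41 ± 0.16, limma adjusted p = 4.96e-05). Its OTI-611 mean was 0.196 of the mean of DMSO 2 and DMSO 3, and without DMSO 1 the log2 fold change was -1.61. DTX3L, the ubiquitin ligase that pairs with PARP9, had 3.32, 3.08 and 2.68 RPKM with OTI-611, against 7, 8.17 and 7.98 RPKM with DMSO (-1.12 ± 0.082, limma adjusted p = 2.90e-06). PARP14 had 6.16, 5.13 and 4.98 RPKM with OTI-611, against 11, 11.5 and 12.4 RPKM with DMSO (-0.98 ± 0.076, limma adjusted p = 4.11e-06). No OTI-611 library of these genes reached the DMSO range.

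PARP9 and DTX3L are transcribed away from each other and their GENCODE v29 models overlap on chromosome 3, PARP9 from 122527924 to 122564577 and DTX3L from 122564238 to 122575203. The ISRE core in the PARP9 stretch, from 122564332 to 122564341, is also the core in the DTX3L window. On each gene's strand, these 10 bases begin 41 bases before the PARP9 start and 6 bases before the DTX3L start. They therefore run across the DTX3L start. PARP12, a relative on chromosome 7, averaged 12.3 ± 0.21 RPKM with OTI-611 and 16.0 ± 1.1 RPKM with DMSO (SD, n = 3 each), a log2 fold change of -0.36.

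The 2 scaffold genes of nuclear bodies differed in direction. PML averaged 6.42 ± 0.31 RPKM with OTI-611 and 8.40 ± 0.42 RPKM with DMSO (-0.34, limma adjusted p = 5.21e-04), whereas SP100 averaged 17.6 ± 0.72 RPKM with OTI-611 and 13.9 ± 0.84 RPKM with DMSO (0.32, limma adjusted p = 4.55e-04). TRIM21, an antibody receptor inside the cell, had 5.32, 4.31 and 4.60 RPKM with OTI-611, against 8, 8.62 and 7.06 RPKM with DMSO (-0.63 ± 0.085, limma adjusted p = 1.52e-04). The groups did not overlap in any of these 3 genes.

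SLFN5, a member of the Schlafen family, had the highest fold change of the tested members and went against most of them. It had 19.98, 19.7 and 18.5 RPKM with OTI-611, against 4, 4.46 and 4.81 RPKM with DMSO (1.91 ± 0.062, limma adjusted p = 2.76e-08). Its OTI-611 mean was 4.18 times the mean of DMSO 2 and DMSO 3. SAMD9 averaged 0.937 ± 0.16 RPKM with OTI-611 and 1.23 ± 0.24 RPKM with DMSO and did not pass (interval -0.52 to 0.12). SAMD9L was at 0.0074 to 0.0525 RPKM with OTI-611, against 0.0638 and 0.0431 RPKM in DMSO 2 and DMSO 3.

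Of the remaining IFI genes, IFI6, which encodes a small protein of organelle membranes, had 10.9, 10.1 and 11.7 RPKM with OTI-611, against 21, 26.9 and 26.0 RPKM with DMSO (-1.10 ± 0.086, limma adjusted p = 4.31e-06). IFI35 averaged 21.6 ± 2.2 RPKM with OTI-611 and 27.9 ± 1.0 RPKM with DMSO, and IFI44 averaged 7.90 ± 0.36 RPKM with OTI-611 and 9.69 ± 0.66 RPKM with DMSO (SD, n = 3 each). Their log2 fold changes were -0.36 and -0.26. IFI44L, 3.65 kb from IFI44, was listed at 0 in every library, and IFI27 reached at most 0.022 RPKM with OTI-611 and 0.0885 RPKM with DMSO. Both are widely used as interferon markers and were near 0 here.

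**Figure D2:**
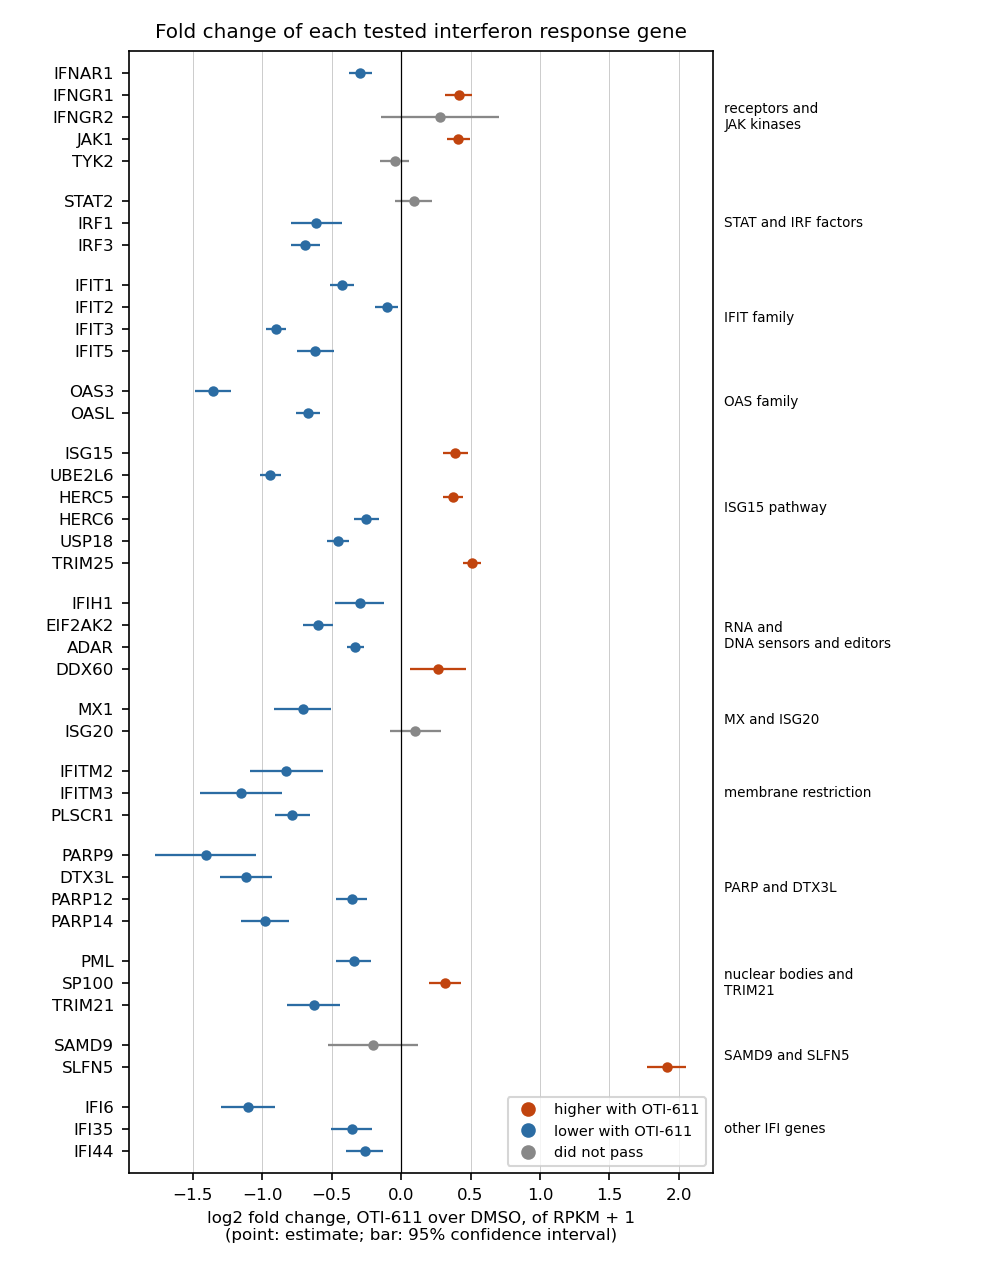
Log2 fold change of OTI-611 over DMSO on log2(RPKM + 1) for the 41 tested genes, grouped by role, each with its 95% confidence interval and coloured by call. Intervals lie left of 0 for 28 genes, right of 0 for 8 and cross it for IFNGR2, TYK2, STAT2, ISG20 and SAMD9, with a range of estimates from -1.41 (PARP9) to 1.91 (SLFN5).

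The 12 genes under the minimum were fitted with no filter on low values, and 0 passed in limma with all 6 libraries, in which DMSO 1 is listed at 0 for each (1, IRF7, had an unadjusted p under 0.05). That fit called 11.8% of all genes lower and 9.37% higher. In a fit without DMSO 1, added after the data were seen, 5 passed as lower, namely OAS1, OAS2, MX2, IFITM1 and IFI27, with adjusted p values of 0.0055, 0.024, 0.019, 0.042 and 0.043, and 0 passed as higher. Without DMSO 1 this fit called 19.8% of all genes lower and 9.03% higher, and of the 20714 genes under the minimum 10.8% lower and 1.53% higher. In that fit OAS2 stood at -0.50 and IFITM1 at -0.60 on the log2 scale. Estimated reads behind some of these calls were few. IFI27 had 3.4, 0 and 0 reads with OTI-611, against 6.8 and 11.9 in DMSO 2 and DMSO 3. IFITM1 had 5.12 to 8.95 reads, against 17.9 and 35.8, and OAS1 5.9 to 10.5, against 26.2 and 31.4. OAS2 had the most, at 40.2 to 56.9 reads, against 112 and 176.

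Matches to the ISRE core stood beside genes of both directions. Of the genes with a promoter window, 16 of 22 lower ones, 3 of 7 higher ones, 2 of 5 that did not pass and 4 of 8 under the minimum had a match. The higher genes with a match were ISG15, HERC5 and DDX60, whose stretches stand above with those of the lower genes. In ISG15 and in HERC5 the marked run is a pair of overlapping matches. UBE2L6, IRF1, IFI35, ADAR, IFNAR1 and HERC6 were lower with no ISRE match in their windows. MX2, PML, IFITM2, USP18, SLFN5, IRF3, IFNAR2, OASL, OAS2, IRF7 and IFIT2 had no window.

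**Figure D3:**
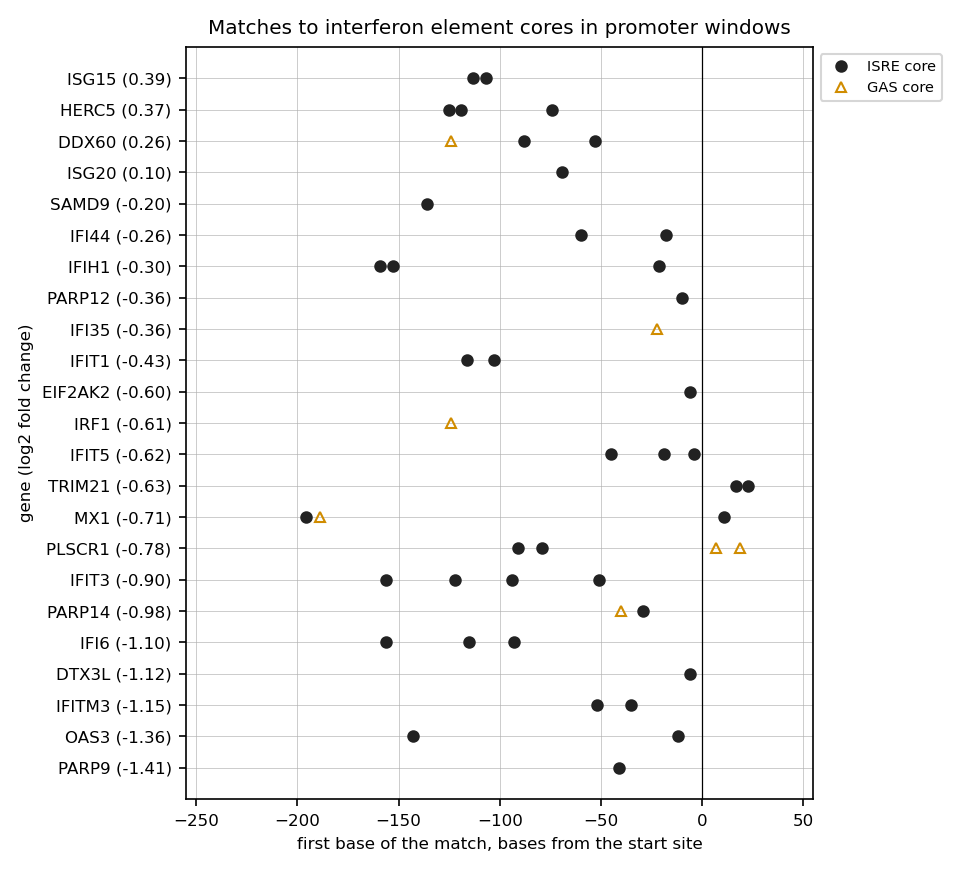
Position of the first base of each match to the ISRE core (circles) or GAS core (triangles) relative to the start site, in bases, for the tested genes with a match, ordered by log2 fold change from ISG15 (0.39) at the top to PARP9 (-1.41) at the bottom. Genes with several RefSeq starts, such as IFIT3 and MX1, show the matches of all their windows, each measured from its own start.

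Other genes of the pathway, from a list made with earlier results of these data known, were mostly lower as well. Of 85 measured, 61 were tested, of which 36 were lower (59.0%, against 37.3% of all tested genes) and 10 higher (16.4%, against 27.8%), with a median log2 fold change of -0.29. Of the 8 tested receptor, kinase, STAT and IRF genes, 4 were lower (50%) and 1 higher (12.5%). STAT3, a factor of cytokine signalling, was at -0.54 and the repressor IRF2 at -0.42. JAK2, the type II receptor kinase, averaged 5.33 ± 0.55 RPKM with OTI-611 and 2.98 ± 0.22 RPKM with DMSO (SD, n = 3 each; 0.67, limma adjusted p = 8.45e-05).

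Of 7 tested negative regulators, 3 were lower (42.9%) and 2 higher (28.6%), near the 37.3% and 27.8% of all tested genes. The feedback inhibitor SOCS3 (-0.92) and the phosphatase PTPN1 (-0.87) were lower, as was PTPN6 (-0.34), and the phosphatases PTPN2 (0.47) and PTPN11 (0.28) higher. Of 9 tested genes of nucleic acid sensing, 5 were lower (55.6%), with DHX9 (-0.78), the kinase IKBKE (-0.62) and DDX3X (-0.15) among them, and 2 higher (22.2%). DDX3X lost its call when libraries were rescaled (-0.09, limma adjusted p = 0.096). The higher genes were the adaptor TICAM1 (0.68) and the DNA sensor CGAS (0.14), whose limma adjusted p of 0.0498 became 0.13 without DMSO 1. Of 37 further induced genes, 24 were lower (64.9%) and 5 higher (13.5%). The 4 with the smallest p were NCOA7 (-1.06), TRIM14 (-1.04), APOL2 (-1.24) and the tryptophanyl-tRNA synthetase WARS1 (0.80), which averaged 139.3 ± 6.8 RPKM with OTI-611 and 79.5 ± 1.4 RPKM with DMSO (SD, n = 3 each). All 4 measured interferon ligand genes lay under the minimum. IFNB1, which encodes interferon beta, had 1.31, 1.08 and 1.48 RPKM with OTI-611, against 0, 1.01 and 1.03 RPKM with DMSO. Its mean of 0.986 RPKM fell just under the minimum with DMSO 1 listed at 0, while every other library was above 1. Each OTI-611 value lay above each DMSO value, and with no filter on low values IFNB1 did not pass (0.52, limma adjusted p = 0.42).

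**Figure D4:**
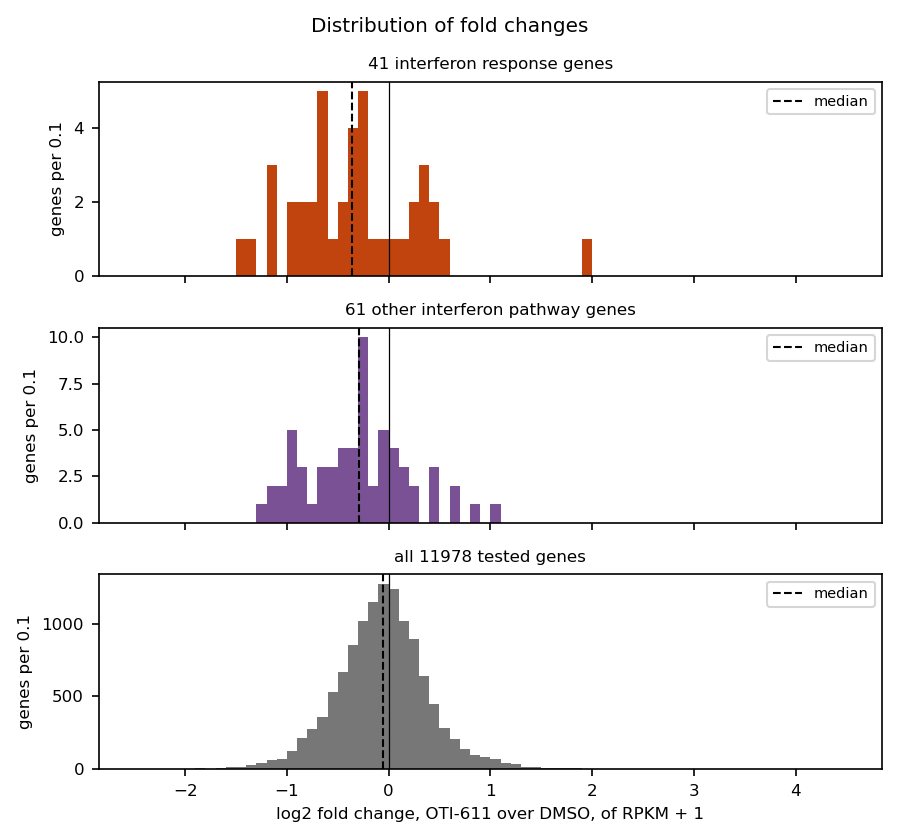
Histograms of the log2 fold change of OTI-611 over DMSO, as genes per bin of 0.1, for the 41 interferon response genes (top), 61 other interferon pathway genes (middle) and all 11978 tested genes (bottom), with dashed lines at the medians of -0.36, -0.29 and -0.05. The bar near 1.9 in the top panel is SLFN5.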

How the data were processed

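The authors deposited 1 table with a value per gene and library and no unit in its header. The 5 columns other than DMSO 1 were taken as RPKM that the authors made, since the smallest values, multiplied by exon length, fall on multiples of a single read (69.7% to 71.2% of them within 0.05 reads). FPKM would look alike. DMSO 1 was deposited as whole numbers only and treated as a score, read as RPKM with its decimals dropped. CASAVA 1.7, TopHat2 2.0.9, Cufflinks 2.1.1, HTSeq and mm10, a mouse build, are named per the submitters' processing notes, whereas all 32692 IDs are human. What each tool did is not stated. Per the labels' protocols, amplified cDNA was tagged by transposition, and no molecular identifiers are named.

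Genes with a mean of at least 1 were fitted as log2(RPKM + 1) with limma 3.58.1 in R 4.3.3 (group as the only term, mean-variance trend, two-sided, Benjamini-Hochberg over all tested genes, threshold 0.05). The scale understates changes of low genes. The script was tested on simulated data. Each library's value is given for members called with a log2 fold change of at least 0.5 in size, for the receptor, kinase, STAT and IRF members and for ISG15; 4 genes with the smallest p are named per other list (PTPN6 and CGAS were added after their values were seen), except that 1 gene is not reported here. USP18, IFIT1 and IFNGR1 lay just inside 0.5 (-0.46, -0.43 and 0.41), and TRIM25 just outside (0.51). Members and lists were chosen with earlier results of these data known. Exon bases and positions are from GENCODE v29 on GRCh38, and promoters (250 bases before to 50 after each start) from RefSeq on GRCh38.p14. No columns were left unused. Alternatives covered pseudocount, filter, scaling, decimals, trend, block and each library left out. No pair of libraries looked like a duplicate: the median absolute log2 difference was 0.057 to 0.086 within groups and 0.265 to 0.288 between them.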

Additional observations from a re-analysis of the deposited data

How the results depend on the processing

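Under each of 16 alternative settings, the number of tested members called lower was 23 to 29 and called higher 7 to 11, against 28 and 8 as reported. Over the same settings 3179 to 5251 of all tested genes were called lower and 2700 to 4085 higher, against 4473 and 3332 as reported. The number of genes tested was not the same under all settings. The lows of 3179 and 2700 came from genes with a mean of at least 5 only, and the fit with no filter tested 32692 genes. Quantile normalization gave 4115 lower and 4085 higher. The lowest count, 23, came from testing only 32 members with a mean of at least 5. With no filter on low values, which adds the 12 low members, the median log2 fold change of the members was -0.26, against -0.36. It was -0.33 with quantile normalization and -0.30 with libraries rescaled by their median log ratio, where the median of all tested genes was -0.00049 and 0.0017. Leaving out each library in turn gave 27 to 29 lower and 7 to 9 higher members, and at least 34 of the 36 called members kept their call.

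TYK2, which did not pass, was at -0.05 as reported and at 0.00885 with libraries rescaled. IFIT2 passed at an adjusted p of 0.030 and lost its call under 7 alternatives (limma adjusted p 0.065 to 0.35), DDX60 under 3 (0.076 to 0.11) and IFIH1 with no filter (0.059) and with decimals dropped in all libraries (0.060). DDX3X lost its call with libraries rescaled (0.096). STAT2 passed as higher after rescaling (0.025) and quantile normalization (0.048), IFNGR2 and ISG20 after quantile normalization (0.0498 and 0.014), and SAMD9 as lower with 0.5 added to DMSO 1 (0.023). The cause of these changes was not tested.

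Same-numbered libraries did not deviate together (correlations 0.02, 0.00 and -0.06), so no effect shared by replicate number was seen. With so few libraries this cannot exclude a paired design, and the deviations of DMSO 1 also hold its dropped decimals. With the replicate number as a block, 28 members were lower and 8 higher, as without it. For genes under 1 RPKM, DMSO 1 holds no information, and its lack of decimals limits what can be detected there. The fit of low members without DMSO 1 was added after the data were seen.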
